A study of Mus musculus with 2 samples.

Results

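The 10 genes described here carry cytokine and hormone signals through STAT3 and STAT5 in the mammary gland: the kinase gene Jak2, the transcription factor genes Stat3, Stat5a and Stat5b, the feedback inhibitor genes Socs1, Socs2, Socs3 and Cish, and the partner or target genes Elf5 and Pim1. They were taken by name from a table of 49492 genes, in which each of the 10 has a row. To understand how macrophages act on mammary basal cells, basal cells of adult wild-type female mice (8 to 10 weeks old) were sorted by the surface pattern lin-CD24+CD29hi and grown in a 3D matrix gel. The ctrl group (genotype WT, treatment none) was grown alone, and its culture time is not stated for this library. The M2 group (genotype WT, co-cultured with M2) shared its wells with M2-like macrophages for 11 to 14 days. RNA of the whole colonies or organoids was sequenced, with 1 library in each group. Both groups share the same medium with epidermal growth factor, insulin, transferrin and selenium according to the study's methods, and no prolactin is named for these libraries. The macrophages were grown from bone marrow of C57/B6 mice, polarised with interleukin 4 and interleukin 13, kept behind the porous membrane of an insert and replaced during the culture. The strain of the basal cell donors and the number of animals pooled are not given in the sources used here.

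STAT proteins wait in the cytoplasm until a cytokine or hormone receptor with a bound Janus kinase phosphorylates them, and then they pair and bind DNA in the nucleus. In the mammary gland, prolactin acts through its receptor, Jak2 and STAT5 to drive alveolar growth and milk protein genes, with Stat5a as the main form, whereas leukemia inhibitory factor and related cytokines act through STAT3, which is known for the loss of alveolar cells after weaning. Both arms induce their own inhibitors, the SOCS proteins and Cish.

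The DNA that these factors bind best holds the palindrome TTCNNNGAA, where N is any base, and stretches of mouse promoters with it are shown to make the target sequence concrete. The windows run from 250 bases before to 50 bases after each RefSeq transcript start (build GRCm38.p6), and capitals mark the matches. The Cish stretch lies on the + strand at chr9:107296654-107296683, Socs3 on the - strand at chr11:117969482-117969550, and the milk genes Csn2 on the - strand at chr5:87699480-87699548 and Csn1s1 on the + strand at chr5:87666078-87666146.
Cish: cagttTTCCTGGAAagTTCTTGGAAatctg
Socs3: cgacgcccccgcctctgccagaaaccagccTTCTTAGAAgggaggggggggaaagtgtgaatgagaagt
Csn2: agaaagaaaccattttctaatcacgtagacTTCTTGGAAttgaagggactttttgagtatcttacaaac
Csn1s1: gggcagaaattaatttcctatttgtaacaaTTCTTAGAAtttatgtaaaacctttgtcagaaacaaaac

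Of the 10 genes, 9 had a window (Socs2 had none), and the promoters of Cish and Socs3 held the palindrome. In Cish the first bases of the matches lay at 0 and 11 bases from the start, and 0.457% of all 32851 windows held 2 or more matches. In Socs3 the match began at position -154, upstream of the RefSeq start. The RefSeq starts used for Cish and Socs3 lie inside the gene spans given below, so these matches lie inside those spans too. Cish and Socs3 are 22.2% of the 9 genes, against 9.55% of all 27025 genes with a window. Among 12 STAT5 target genes of the mammary epithelium with a window, 5 held a match (41.7%), and among 25 STAT3 target genes 5 did (20%). The palindrome reads the same on both strands, so each match covers both. A match is a description of letters and not a measured binding site.

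In the ctrl library 26912610 reads and in the M2 library 29413844 reads fell in annotated genes. A total of 19233 genes with at least 10 reads summed over both libraries entered a two-sided exact binomial test, and all 10 genes were among them. A gene was called when its adjusted p was under 0.05 and it differed by at least 2-fold between libraries scaled by TMM (trimmed mean of M values, a scaling on the bulk of genes). The design has no replicates, so the test compares these libraries and not the conditions, and it covers counting error only. The labelled epithelial cells were checked by their keratins. Both libraries held the basal Krt14 (81991 reads in ctrl and 68968 in M2) and Krt5 (56383 and 83619), and the luminal Krt8 (29888 and 36348) as well. Of 13 basal markers, 1 rose (Krt17, 6051 and 16592 reads, 1.39 on the log2 scale), 1 fell (Oxtr, 8324 and 1920 reads, -2.18) and 11 were not called, with a median of 0.04. Of 10 general luminal markers, 2 rose, Krt7 with 6227 and 14885 reads (1.19) and Muc1 with 467 and 1841 (1.91), and none fell, with a median of 0.04.

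In the M2 library, Pim1 was called higher and Stat5a and Elf5 were called lower, and the other 7 genes were not called. In bulk RNA, fewer cells of a type and less RNA per cell cannot be told apart, which touches each of these values. For comparison, 8.16% of all genes tested were called higher and 6.55% lower. At a 1.5-fold threshold, Jak2 joined Pim1 on the higher side and Socs3 joined Stat5a and Elf5 on the lower side, giving 2 and 3 of 10, against 12.8% and 11.1% of all genes tested. An adjusted p under 0.05 alone was reached by 8 of the 10 genes and by 53.1% of all genes tested. The 1 higher call of 10 is a share close to the background, and the 2 lower calls are a share above it that rests on Stat5a and Elf5. The median log2 fold difference of the 10 genes was 0.21, beside -0.0032 for all genes tested.

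**Figure D1:**
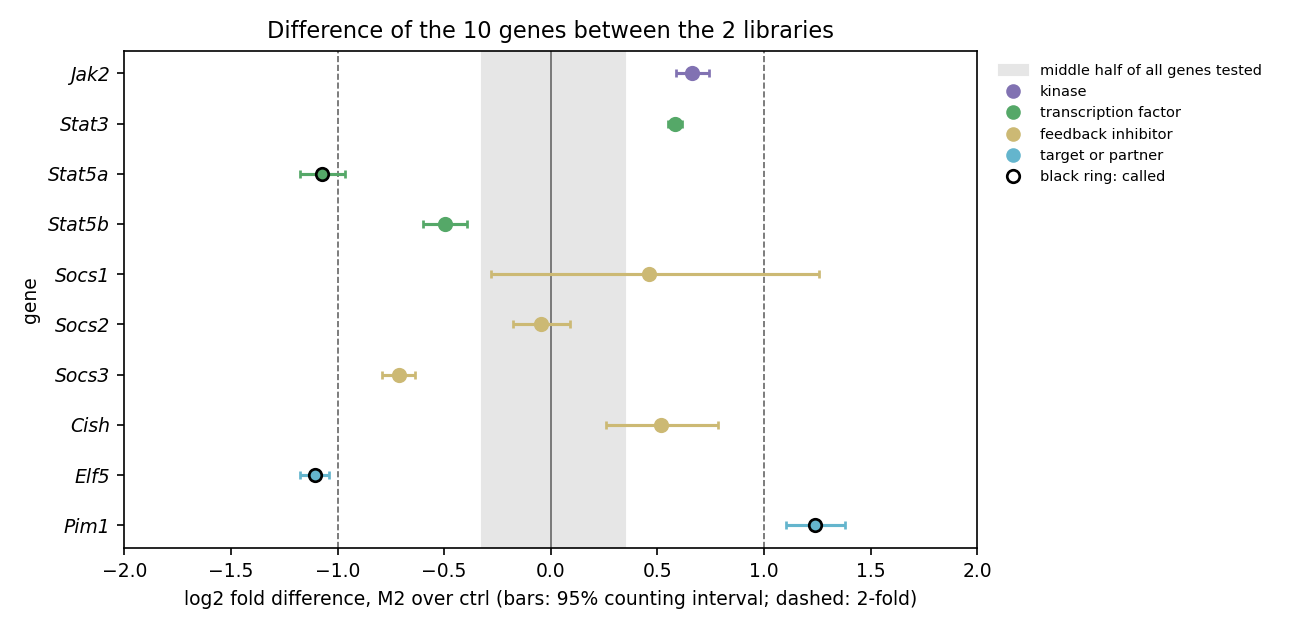
Log2 fold difference (horizontal axis, M2 over ctrl) of each of the 10 genes (vertical axis), with bars for the 95% counting interval, colours for the role, dashed lines at 2-fold and a grey band for the interquartile range of all genes tested. Pim1 lies beyond the 2-fold line at 1.24, Stat5a and Elf5 lie beyond it at -1.07 and -1.11, and Socs2 lies at -0.04 inside the band.

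The plot of the log2 fold differences shows the order of the 10 genes, and its grey band runs from -0.32 to 0.35. Socs2 alone has its value inside that band, while the bar of Socs1 spans most of it. The interval of Stat5a crosses the 2-fold line, and those of Elf5 and Pim1 lie beyond it.

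Jak2 encodes the kinase that sits on the prolactin, growth hormone and several cytokine receptors (chr19:29251828-29313080, + strand). It had 2148 reads in ctrl and 3569 reads in M2. The M2 level was 1.58-fold that of ctrl, or a log2 fold difference of 0.66 (95% interval 0.59 to 0.74, exact binomial adjusted p = 3.36e-64). Jak2 was thus past counting error and under the 2-fold threshold. Among all genes tested, 14.7% had a log2 fold difference at or above it. The other Janus kinases were not called. Jak1, which serves gp130 and interferon receptors, had 4125 reads in ctrl and 4461 in M2 (0.04 on the log2 scale). Jak3, which pairs with the common gamma chain, had 213 and 351 reads (0.65), and Tyk2 had 482 and 398 reads (-0.34).

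Stat3 had the most reads of the 10 genes (chr11:100885098-100939540, - strand). It had 13071 reads in ctrl and 20525 reads in M2. The M2 level was 1.497-fold that of ctrl, or a log2 fold difference of 0.58 (95% interval 0.55 to 0.61, exact binomial adjusted p = 3.98e-289). It therefore stood higher in M2 and just under the 1.5-fold threshold. Stat5a, the main STAT5 form of the mammary epithelium (chr11:100859351-100885169, + strand), went the other way, with 2186 reads in ctrl and 1091 reads in M2. It fell to 0.476-fold of its ctrl level, or a log2 fold difference of -1.07 (95% interval -1.18 to -0.97, exact binomial adjusted p = 1.58e-93). A share of 6.92% of all genes tested had a value at or below that of Stat5a. Stat5b, its close paralog with a larger part in growth hormone signalling (chr11:100780731-100850724, - strand), had 1766 reads in ctrl and 1313 reads in M2. Its log2 fold difference was -0.50 (95% interval -0.60 to -0.39), and it was not called. Reads of Stat5a and Stat5b could be shared between the paralogs by the counting.

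Because the STAT genes lay on both sides of 0, their ratios within each library were compared, which do not depend on how the libraries are scaled. For each Stat5a read there were 5.98 Stat3 reads in ctrl and 18.8 in M2. Per length, the ratio of Stat3 to Stat5a levels was 4.48 in ctrl and 14.1 in M2, a difference of 1.65 on the log2 scale (95% interval 1.54 to 1.76). The same ratio against Stat5b was 4.30 in ctrl and 9.09 in M2 (1.08, interval 0.97 to 1.19). The Stat5a to Stat5b ratio per length was 0.961 in ctrl and 0.645 in M2 (-0.57, interval -0.72 to -0.43), so the pair did not differ between libraries by the same factor. Of the summed per-length level of the 3 genes, Stat3 made up 68.69% in ctrl and 84.67% in M2. Stat5a made up 15.34% and 6.01%, and Stat5b 15.96% and 9.32%. Of the other STAT genes described here, none was called. Stat6, which answers to interleukin 4 and interleukin 13, had 2169 reads in ctrl and 2056 in M2 (-0.15 on the log2 scale), Stat2 had 972 and 863 (-0.24), and Stat4 had 22 and 32 reads.

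These 3 genes lie side by side on chromosome 11 in a block of 158.8 kb, from Stat5b through Stat5a to Stat3, on the GRCm38 coordinates of the table. Stat5b and Stat5a start away from each other with 8626 bases between them, whereas Stat5a and Stat3 meet tail to tail and share 72 exon bases (chr11:100885098-100885169) on opposite strands. Whether the counting used strand is not given, so reads in those 72 bases could belong to either gene. Within 100 kb of the block, 13 other genes were listed and 8 were tested. Ptrf, which encodes the caveolar coat protein cavin 1 and lies next to Stat3, was called higher, with 2855 reads in ctrl and 8930 reads in M2 (1.58 on the log2 scale, interval 1.52 to 1.64). None of the 8 was called lower. Atp6v0a1, a proton pump subunit gene, had 902 and 550 reads (-0.78), and the remaining 6 had values from -0.60 (Zfp385c) to 0.38 (Dhx58). Zfp385c had only 12 reads in ctrl and 8 in M2, with an interval from -2.15 to 0.76.

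**Figure D2:**
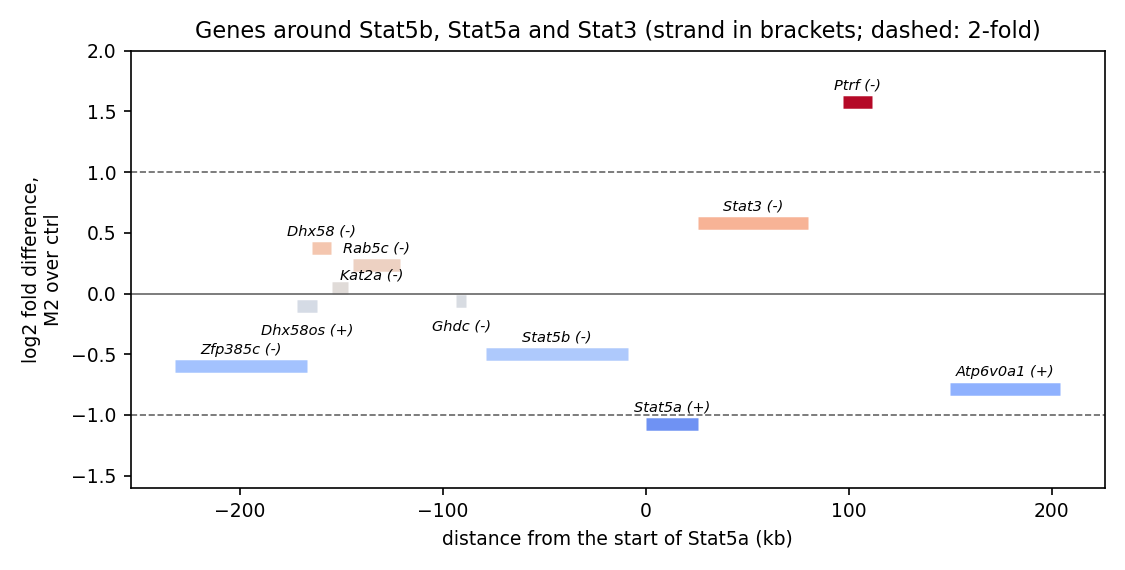
Tested genes within 100 kb of the STAT block, each drawn as a bar from end to end along the distance from the start of Stat5a (kb, horizontal axis) at the height of its log2 fold difference, M2 over ctrl (vertical axis), with dashed lines at 2-fold. Stat5b (-0.50) and Stat5a (-1.07) lie under 0, and Stat3 (0.58) and Ptrf (1.58) lie above it.

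The map of the block shows that the sign turns between Stat5a and Stat3, which overlap. On the Stat5b side, Ghdc (188 reads in ctrl and 189 in M2, -0.06 on the log2 scale) and Kat2a (871 and 945, 0.05) lay near 0.

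The inhibitor genes did not share a direction. Socs3, which encodes the inhibitor that binds gp130 and restrains STAT3 (chr11:117966079-117970047, - strand), had 3539 reads in ctrl and 2265 reads in M2. Its M2 level was 0.610-fold that of ctrl, or a log2 fold difference of -0.71 (95% interval -0.79 to -0.64, exact binomial adjusted p = 5.99e-76). Socs3 was past the 1.5-fold threshold and not the 2-fold one. Its value lay on the opposite side of 0 from that of Stat3. Cish, an inhibitor known as a STAT5 target (chr9:107296026-107302784, + strand), had 200 reads in ctrl and 301 reads in M2. Its log2 fold difference was 0.52 (95% interval 0.26 to 0.79, exact binomial adjusted p = 0.000198), on the opposite side of 0 from Stat5a and Stat5b. Cish overlaps Gm17040 and Gm17041 on the other strand, in 261 and 479 exon bases. Of these, Gm17041 had 52 reads in ctrl and 105 reads in M2, whereas Gm17040 had 63 and 53.

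Socs2 encodes an inhibitor of growth hormone and prolactin signalling (chr10:95385362-95417180, - strand). It had 899 reads in ctrl and 915 reads in M2. The log2 fold difference was -0.04 (95% interval -0.18 to 0.09, exact binomial adjusted p = 0.633). Counting error alone therefore leaves room for a difference of 0.18 downwards or 0.09 upwards on that scale. Socs1, an inhibitor that binds Janus kinases directly and is known as an interferon target (chr16:10783808-10785536, - strand), had 26 reads in ctrl and 38 reads in M2. Its interval from -0.28 to 1.26 around 0.46 (exact binomial adjusted p = 0.302) was too wide at this depth to place it on one side of 0. The 4 other members of the family were not called either. Socs5 had 3447 reads in ctrl and 2615 in M2 (-0.47 on the log2 scale), and Socs4 had 2054 and 1764 (-0.29). Socs7 had 1374 and 1217 reads (-0.24), and Socs6 had 902 and 1266 (0.42). Summed over all 8, the family had 453 CPM (counts scaled by library size) in ctrl and 360 in M2. The lower sum rested mainly on Socs3 (129 CPM in ctrl and 78.6 in M2) and Socs5 (125 and 90.7 CPM), whereas Socs6, Cish and Socs1 had values above 0.

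Elf5 and Pim1 were both past 2-fold, in opposite directions. Elf5 encodes an ETS transcription factor that acts with STAT5 in luminal progenitor and alveolar cells (chr2:103411688-103450989, + strand). It had 5704 reads in ctrl and 2776 reads in M2. It fell to 0.464-fold of its ctrl level, or a log2 fold difference of -1.11 (95% interval -1.17 to -1.04, exact binomial adjusted p = 4.18e-256), and 6.73% of all genes tested lay at or below it. Pim1 encodes a serine/threonine kinase induced by STAT3 and STAT5 (chr17:29490812-29496111, + strand). It had 617 reads in ctrl and 1530 reads in M2. It rose 2.36-fold, or a log2 fold difference of 1.24 (95% interval 1.11 to 1.38, exact binomial adjusted p = 1.73e-78), and 7.34% of all genes tested lay at or above it. Pim1 shares 468 exon bases with Gm26885 on the other strand, which had 121 reads in ctrl and 281 in M2. Of the related kinases, Pim3 had 724 reads in ctrl and 625 in M2 (-0.28 on the log2 scale) and Pim2 had 70 and 125 (0.76), and neither was called.

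How much cultures of 1 group vary is unknown here, so a spread between cultures was assumed in a further test. With edgeR's exactTest at an assumed biological coefficient of variation of 0.1, the calls of Pim1, Stat5a and Elf5 held. At 0.2 the call of Pim1 held and those of Stat5a and Elf5 did not, and at 0.4 none of the 3 held.

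**Figure D3:**
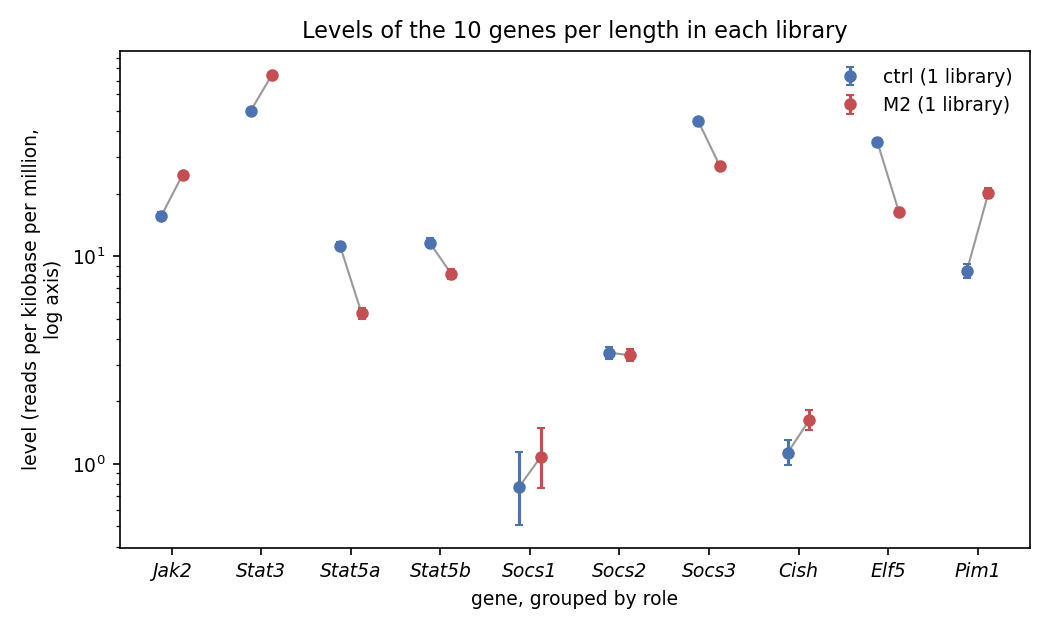
Level per length (RPKM, reads per kilobase of exon and per unit of library size, log axis) of the 10 genes, grouped by role along the horizontal axis, in ctrl (blue) and M2 (red), with 95% counting intervals and a grey line joining the libraries. Stat3 stands highest at 49.9 in ctrl and 74.8 in M2, and Socs1 lowest at 0.776 and 1.08.

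The plot of levels per length runs from Socs1 at the bottom to Stat3 at the top in both libraries. To set genes against each other, reads were divided by the exon length in the table, which sums over isoforms and so gives rough levels. In ctrl the order of levels per length, in RPKM, was Stat3 (49.9), Socs3 (44.6), Elf5 (35.3), Jak2 (15.5), Stat5b (11.6), Stat5a (11.2), Pim1 (8.51), Socs2 (3.43), Cish (1.13) and Socs1 (0.776). The counting intervals of Stat5b and Stat5a overlapped, as did those of Cish and Socs1. In M2 the order was Stat3 (74.8), Socs3 (27.2), Jak2 (24.6), Pim1 (20.1), Elf5 (16.4), Stat5b (8.23), Stat5a (5.31), Socs2 (3.33), Cish (1.63) and Socs1 (1.08). There the intervals of Cish and Socs1 alone overlapped. Elf5 thus stood above Jak2 and Pim1 in ctrl and under both in M2, although without division by length it stood above Pim1 in M2 as well (96.3 and 53.1 CPM). Socs2, Cish and Socs1 held the last 3 places in both libraries.

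**Figure D4:**
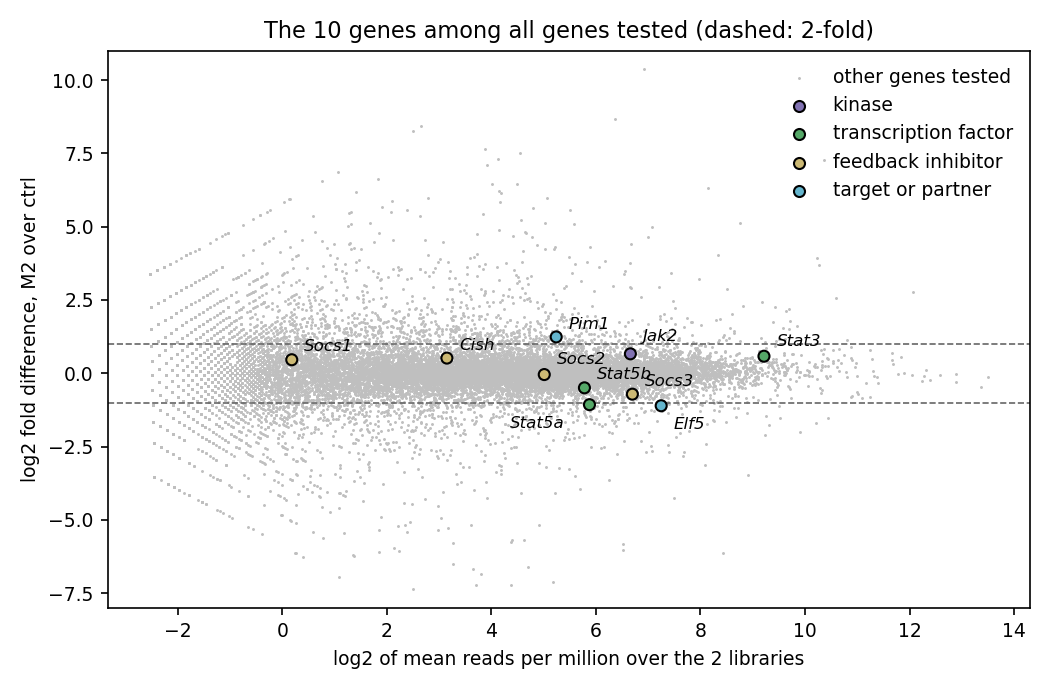
Log2 fold difference, M2 over ctrl (vertical axis), against the log2 of mean CPM over both libraries (horizontal axis) for the 19233 genes tested (grey), with the 10 genes in colours by role and dashed lines at 2-fold. Pim1 (1.24), Stat5a (-1.07) and Elf5 (-1.11) lie just past the dashed lines, and the other 7 lie between them.

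The plot of all genes tested shows many grey points farther out than any of the 10 genes. Even for Elf5, the farthest out of those on the lower side, 6.73% of all genes tested lay at or below it. Socs1 lies at the left, where counting noise fans out, and Stat3 lies at the right, with the highest mean level of the 10.

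The upstream ligand and receptor genes were described from lists chosen with earlier results of these data known. Of 13 receptor genes that signal to STAT5, 10 were tested, 1 rose and 2 fell, with a median log2 fold difference of -0.20 (-0.37 where genes needed at least 1 CPM in both libraries). Prlr, the prolactin receptor gene, fell from 3967 reads in ctrl to 1379 in M2 (-1.59 on the log2 scale, interval -1.68 to -1.50). Erbb4, a neuregulin receptor gene that signals to STAT5A, fell from 158 reads to 17 (-3.21, interval -4.10 to -2.56). Il2rg, the gene of the common gamma chain, rose from 8 reads to 61 (2.72, interval 1.79 to 4.14). Ghr, the growth hormone receptor gene, had 1255 reads in ctrl and 833 reads in M2 (-0.66), and Egfr had 3061 and 4404 (0.46), and neither was called. So both the prolactin receptor and Stat5a were lower in M2, and Jak2 between them was not.

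Of 12 ligand genes that signal to STAT5, 7 were tested, 3 rose and none fell (median 0.33). The sign of that median turned to -0.04 where genes needed at least 1 CPM in both libraries. Csf3, the gene of the granulocyte colony factor, rose from 25 reads in ctrl to 736 in M2 (4.76 on the log2 scale, interval 4.24 to 5.45). Tslp rose from 15 reads to 52 (1.66, interval 0.87 to 2.66). Csf2 rose from 2 reads, under the counting floor of 3 reads, to 54 reads (interval 2.76 to 7.77). Prl and Gh, named after their values were seen, had 0 reads in both libraries, which allows up to 0.109 CPM in ctrl and 0.104 CPM in M2. The receptor gene Csf3r was likewise at 0 reads in both.

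Of 14 receptor genes that signal to STAT3, 9 were tested, 1 rose and 2 fell (median -0.57, and -0.31 with at least 1 CPM in both libraries). The shared chain Il6st (gp130) had 6182 reads in ctrl and 6342 in M2 (-0.03 on the log2 scale), and Osmr had 3960 and 4676 (0.17). Lifr, the receptor gene for leukemia inhibitory factor, had 3337 and 2051 reads (-0.77) and was not called. Il6ra fell from 245 reads to 66 (-1.95, interval -2.38 to -1.56), Il20rb fell from 236 to 122 (-1.02, interval -1.35 to -0.70), and Cntfr rose from 1675 to 4573 (1.38, interval 1.30 to 1.46). Il6st thus lay near 0, while other receptor genes of the list were called in both directions.

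Of 15 ligand genes that signal to STAT3, 8 were tested, 3 rose and 1 fell (median 0.71, and 0.24 with at least 1 CPM in both libraries). Lif, the gene of leukemia inhibitory factor, rose from 1262 reads in ctrl to 4633 in M2 (1.81 on the log2 scale, interval 1.72 to 1.90) and had the most reads of the list. Il6 rose from 4 reads to 17 (1.78, interval 0.40 to 4.05), and this call was lost already at an assumed coefficient of 0.1. Il24 rose from 1 read, under the floor, to 45 reads (interval 2.87 to 10.76). Lep, the leptin gene, fell from 198 reads to 6 (-4.90, interval -6.58 to -3.97). Lep is also an adipocyte marker, and of 6 such markers 3 were tested, of which Fabp4 fell with it (62 and 10 reads) and Pparg rose (9 and 46).

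Downstream, 29 of 30 STAT3 target genes were tested, 10 rose, 2 fell and 17 were not called (median 0.22, and 0.12 with at least 1 CPM in both libraries). Among those that rose were Hp, the haptoglobin gene, with 1007 reads in ctrl and 17485 in M2 (4.05 on the log2 scale), and Steap4, a metalloreductase gene, with 2409 and 18569 (2.88). Lcn2 had 12343 and 76343 reads (2.56), and Vegfa had 934 and 7510 (2.94). The immediate early gene Fos fell from 42339 reads to 11153 (-1.99), and Zfp36, which encodes an RNA decay factor, fell from 16616 to 6272 (-1.47). Igfbp5, a STAT3 target of the gland after weaning, had 337432 and 256840 reads (-0.46) and was not called. Genes of this list thus lay on both sides of 0, and many of them also answer to other factors.

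Of 16 STAT5 target genes of the mammary epithelium, 11 were tested, 4 rose and 2 fell (median 0.81, and 0.52 with at least 1 CPM in both libraries). In the same library in which Stat5a and Elf5 fell, 3 casein genes rose. Csn1s1 had 460 reads in ctrl and 74931 in M2 (7.28 on the log2 scale, interval 7.15 to 7.41), and Csn3 had 5916 and 16755 (1.43). Csn2 rose from 2 reads, under the floor, to 138 (interval 4.16 to 9.10). The casein genes Csn1s2a (2 reads in ctrl and 1 in M2) and Csn1s2b (8 and 1) had too few reads to be tested. Lalba, the gene of the milk protein alpha-lactalbumin, fell from 67 reads to 29 (-1.25), and Igf1 rose from 187 to 1030 (2.39). Prlr, given above, was the other gene of this list that was called lower. The milk genes therefore did not move as 1 group, and neither Cish nor Socs2, both of them inhibitors known to answer to STAT5, was called.

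Of 12 other inhibitors of the pathway, 11 were tested, 1 rose and none fell (median -0.10). Ptpn2, which encodes a phosphatase that acts on Janus kinases and STATs, rose from 811 reads in ctrl to 2112 in M2 (1.31 on the log2 scale, interval 1.19 to 1.43). Ptpn11 had 5190 and 6793 reads (0.32), and Ptpn1 had 3175 and 3365 (0.01).

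**Figure D5:**
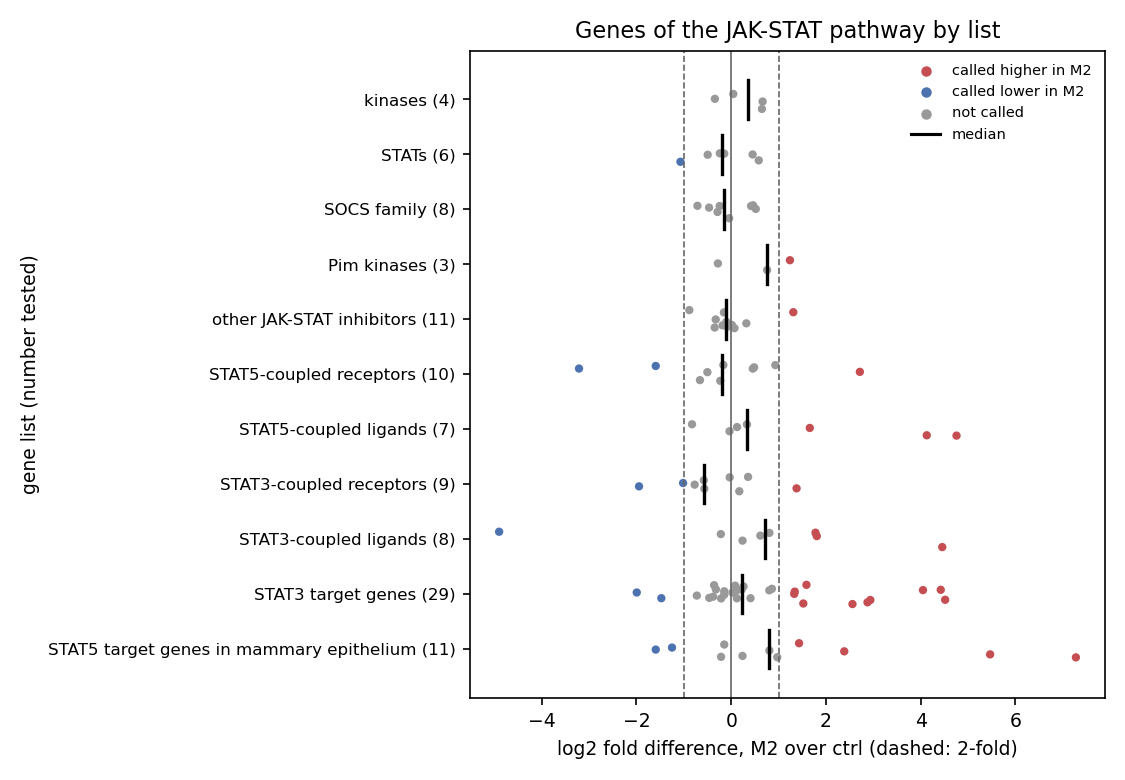
Log2 fold difference, M2 over ctrl (horizontal axis), of each tested gene of 11 JAK-STAT lists (vertical axis, number tested in brackets), with red for genes called higher, blue for genes called lower, grey for genes not called, a black line for the list's median and dashed lines at 2-fold. The kinase and SOCS lists lie within the 2-fold lines and the STAT list crosses them with Stat5a (-1.07), whereas the ligand, receptor and target lists reach from -4.90 (Lep) to 7.28 (Csn1s1).

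The plot of lists shows a narrower spread for the kinase, STAT and SOCS genes than for the ligands and targets. Some wide ligand values came from few reads, such as Il24 (1 in ctrl and 45 in M2) and Csf2 (2 and 54). In the Pim and inhibitor lists, Pim1 (1.24) and Ptpn2 (1.31) lay past 2-fold. The 6 STAT genes drawn ran from -1.07 to 0.58 and the 8 SOCS genes from -0.71 to 0.52 on the log2 scale. At an assumed coefficient of 0.2, the calls of Il6, Il20rb and Lalba were lost along with those of Stat5a and Elf5. At 0.4, calls were left in 4 of the 11 lists. These were 2 of the STAT5 ligands, 1 higher and 1 lower of the STAT3 ligands, 3 of the STAT3 targets and 2 of the STAT5 targets.

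Markers of luminal cell types differed between the libraries alongside Stat5a, Elf5 and Prlr. In such cultures, the paper's flow cytometry found mostly luminal cells in both groups, with a smaller luminal and a larger basal share in M2. It also found a smaller share of luminal cells with high Sca1 in M2. The paper takes Sca1 as a label of luminal cells with the estrogen receptor. Of 12 luminal progenitor and alveolar markers, 5 were higher and 4 lower (median 0.28), with a summed level of 5799 CPM in ctrl and 9563 in M2. The rise of the sum rested on Lcn2 (449 CPM in ctrl and 2649 in M2) and Trf (147 and 2266 CPM). None of the 12 was at 0. Lcn2, as given above, and Trf (4038 reads in ctrl and 65294 in M2) rose, while Wfdc18 fell from 49957 to 15995 and Kit from 15110 to 4973. Aldh1a3 had 28809 and 37577 reads (0.31) and was not called. Of 10 hormone-sensing luminal markers, 9 were tested, 5 were called lower and none was called higher (median -1.55). Their summed level was 558 CPM in ctrl and 251 in M2. Among those not called, Cited1 (197 and 369 reads, 0.83 on the log2 scale) and Ly6a (314 and 447, 0.44) lay above 0. Pgr fell from 3195 reads to 575, and Prlr belongs to this list as well, whereas Gata3 had 2971 and 2896 reads (-0.11) and was not called. By RT-qPCR, the paper reported lower Gata3 under co-culture with macrophages, a difference that these libraries do not show. Tnfsf11 was at 0 in ctrl. The part of either list in the values of Stat5a and Elf5 was not tested.

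Macrophage markers were sparse in both libraries. Of 21 markers, 6 were tested, 2 were higher and none lower, and 9, among them Ptprc, Adgre1 and Tyrobp, had 0 reads in both. The list summed to 65.1 CPM in ctrl and 84.6 in M2, most of it Arg1 (1507 and 2090 reads). Cd68 had 170 reads in ctrl and 165 reads in M2, and Csf1r had 94 and 92. The 2 that were called higher were Aif1, with 3 reads in ctrl and 40 in M2 (log2 interval 2.02 to 6.005), and Cd163, with 2 and 30 reads (interval 1.86 to 6.95), both at or under the floor in ctrl. Of 10 fibroblast markers, 8 were tested, 1 was higher and 3 lower (median -1.25). Their summed level was 1484 CPM in ctrl and 2189 in M2, most of it Fn1 (1154 and 2055 CPM). Fn1 had 31707 and 59215 reads (0.83 on the log2 scale, not called), and Col1a1 had 2057 and 1097 (-0.98, not called). Col1a2 fell from 4463 to 1457 (-1.68), Col3a1 from 1612 to 276 (-2.61) and Pdgfrb from 259 to 55 (-2.28). Dcn rose from 51 to 157 (1.53). The part of the macrophage and fibroblast lists in the values of the 10 genes was not tested. Of 8 lymphocyte markers, Cd79a alone was tested (8 and 16 reads) and was not called. Of 6 endothelial markers, 4 were tested, with 1 higher (Pecam1, 33 and 76 reads) and 2 lower, among them Cdh5 with 11 and 2 reads.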

How the data were processed

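The authors deposited raw read counts per gene (whole reads, with no normalization) for the ctrl library and the M2 library. Their notes on processing name the builds GRCm38 and mm10. The aligner, the counting tool, the annotation and the use of strand are not given in the sources used here. Per the labels, a column kit gave the RNA and a SMARTER mRNA kit the libraries, whereas the study's methods name the lysis reagent RNAiso Plus. The series text speaks of a microarray, while the values are sequencing counts. All per-sample columns were used. Of the 10 genes, 8 had the same span in GENCODE M21 on GRCm38, and all 10 overlapped it.

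From these counts, library sizes were scaled by TMM in edgeR 4.0.16 under R 4.3.3 (factors of 1.02, ctrl, and 0.980, M2). The log2 fold difference is that of reads plus a pseudocount of 1, M2 over ctrl. Two-sided exact binomial tests (scipy 1.17.1, Python 3.11.15) were adjusted after Benjamini and Hochberg over all genes tested. Intervals are 95% Clopper-Pearson intervals, and no molecular identifiers are stated, so they and the floor of 3 reads cover counting error only. The steps were tested on simulated counts with planted changes and counting error only. That check held no spread between cultures, so it cannot show how the calls behave under such a spread. Alternatives were 4 other scalings, other filters, pseudocounts and fold thresholds, and edgeR's exactTest at an assumed coefficient of variation. DNA sequences came from RefSeq.

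The 10 genes and all lists were chosen with earlier results of these data known. The lists are not complete, and some genes of the pathway are not reported here. Named were the 10 genes, up to 6 called and 3 uncalled genes with the most reads of each pathway list, genes of each marker list, as a rule among its 3 with the most reads, and neighbours within 100 kb or overlapping genes. Other genes were named after their values were seen, such as Stat4, Csf3r, Tnfsf11, Csn1s2a, Csn1s2b, Krt17, Krt7, Muc1 and Oxtr. The same holds for Wfdc18, Kit, Cited1, Ly6a, Aif1, Cd163, Dcn, Col3a1 and Pdgfrb.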

Additional observations from a re-analysis of the deposited data

How the results depend on the processing

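With 1 library in each group, no dispersion could be estimated, no replicate could be left out, and depth limits mainly Socs1, which had no value where at least 1 CPM was required in both libraries. No paired analysis was possible because neither group has more than 1 library. Under 4 other scalings, 2 filters and 2 pseudocounts the calls of the 10 genes were the same. Over the other scalings alone, the median of all genes stayed between -0.0730 and 0.0003, and Stat5a ranged from -1.14 to -1.07, Elf5 from -1.18 to -1.10 and Pim1 from 1.17 to 1.24. The number of all genes called higher and lower was 797 and 583 with at least 1 CPM in both libraries, 2462 and 2143 at 1.5-fold, 616 and 494 at 4-fold, 964 and 691 at an assumed coefficient of 0.2, and 175 and 130 at 0.4. Of the 10 genes, 2 were called higher and 3 lower at 1.5-fold, where Jak2 (0.66) was added on the higher side and Socs3 (-0.71) on the lower side. The number called higher was 0 at 4-fold and at a coefficient of 0.4, where Pim1 (1.24) was lost. None (0) was called lower at 4-fold or at coefficients of 0.2 and 0.4, where Stat5a (-1.07) and Elf5 (-1.11) were lost. All of these losses follow from the stricter threshold or the larger assumed spread. Of 88 list medians under alternatives, 8 moved by over 0.1, of which 7 under the filter of 1 CPM in both libraries (the STAT5 ligand median turned from 0.33 to -0.04) and 1 where 1 read in sum was enough (the same list, 0.23), and without length 11 of 20 places in the order of levels changed.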
